A study of Mus musculus with 15 samples.

Results

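The genes described here encode heat shock proteins, their DnaJ cochaperones and the subunits of the cytosolic chaperonin. They were chosen by symbol alone: every gene whose current symbol starts with Hspa, Hspb, Hspd, Hspe, Hsph, Hsp90, Dnaja, Dnajb or Dnajc, or with Cct and a digit. This gave 63 genes with 100 probes, of 9834 genes that the platform annotation names by 1 symbol per probe. Each of 15 two-colour cDNA arrays set RNA of a mouse line, labelled as lymphoid ES (embryonic stem) cells, after treatment against RNA of the untreated line. The treated RNA was in Cy5 on 8 arrays and in Cy3 on the other 7, the dye swaps. The labels give no treatment, dose, duration, genotype or number of cultures, and part of their protocol text speaks of organs and animals, so p-values measure the spread between arrays, which may be technical.

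Molecular chaperones bind unfolded or newly made proteins and keep them from aggregating. HSP70 proteins do this in cycles of ATP hydrolysis that J-domain (DNAJ) proteins start and nucleotide exchange factors end, and HSP90 takes over clients such as kinases and steroid receptors. The chaperonins are closed chambers, HSP60 with its lid HSP10 in mitochondria and the CCT ring in the cytosol, where actin and tubulin fold. Small HSPs hold unfolded proteins without ATP. The transcription factor HSF1 raises many of these genes after heat or proteotoxic stress by binding repeats of the letters GAA. The unfolded protein response raises the members that work in the endoplasmic reticulum (ER), in part through a CCAAT-containing element.

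Promoter sequence was used to see which members carry the letters of these stress elements near their start. RefSeq windows (GRCm38.p6) from 250 bases before to 50 bases after a transcription start were found for 53 of the 63 genes, with 69 windows among them. A heat shock element, searched on both strands as 3 alternating units of GAA and TTC with any 2 bases between neighbours, starting with either unit, was present for 4 members (7.55%), namely Hspd1, Hspe1, Hsph1 and Dnajb6, against 0.662% of 27025 genes. Matches that start with GAA and with TTC are shifted phases of 1 repeat and can overlap, and they did so in the promoter that Hspd1 and Hspe1 share. The same bases are counted there for both genes. An ER stress element, searched on both strands as CCAAT and CCACG with any 9 bases between them, was present for 3 members (5.66%), namely Hspa5, Hsp90b1 and Dnajc3, against 0.137% of genes. This second motif was chosen after the array values were seen. A match describes letters and is not a measured binding site. Only exact matches in these windows were searched, so a member without a match was not shown to lack an element.

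The stretches that hold the matches follow, with the matched letters in capitals, each 5′ to 3′ on the strand of the gene named. Hspd1 and Hspe1 start back to back, so the whole stretch between their starts is shown once, on the strand of Hspe1, at chr1:55087933-55088147 (plus strand).
Hspe1 and Hspd1: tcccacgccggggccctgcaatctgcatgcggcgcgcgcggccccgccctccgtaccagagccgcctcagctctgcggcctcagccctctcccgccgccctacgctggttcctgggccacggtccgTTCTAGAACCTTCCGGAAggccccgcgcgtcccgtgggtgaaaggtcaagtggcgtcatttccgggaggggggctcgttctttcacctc
Dnajb6, chr5:29735838-29735897 (plus strand): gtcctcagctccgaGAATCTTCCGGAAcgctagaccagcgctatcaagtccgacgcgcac
Hsph1, chr5:149636279-149636308 (minus strand): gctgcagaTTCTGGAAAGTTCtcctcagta
Hspa5, chr2:34771990-34772089 (plus strand): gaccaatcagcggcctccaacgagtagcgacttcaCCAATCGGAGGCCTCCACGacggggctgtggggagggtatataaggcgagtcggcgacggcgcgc
Dnajc3, chr14:118937792-118937881 (plus strand): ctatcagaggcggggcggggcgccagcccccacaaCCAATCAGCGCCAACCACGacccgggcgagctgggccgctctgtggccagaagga
Hsp90b1, chr10:86705515-86705664 (minus strand): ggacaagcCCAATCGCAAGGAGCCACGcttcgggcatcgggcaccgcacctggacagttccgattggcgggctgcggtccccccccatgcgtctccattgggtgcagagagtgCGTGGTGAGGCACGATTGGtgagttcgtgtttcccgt
In Hsp90b1 the element occurs once on each strand. In Hsph1 the match lies 15 and 36 bases past its 2 annotated starts, and in the other genes it lies before the start.

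Values are the deposited log2 ratios of the 2 channels, averaged over the probes of a gene on each array; a difference of 1 on this scale is a 2-fold change. The mean of both dye orientations is called the mean ratio below. Arrays that carry the treated RNA in Cy5 are called Cy5 arrays. The second quantity, Cy5 arrays minus dye swaps, is called the orientation difference. The labels do not settle the direction of the deposited ratio, so signs below are as deposited. Every placeholder for an empty channel was above 0 on Cy5 arrays and below 0 on the dye swaps. That pattern arises if the swaps were turned and the Cy3 channel was empty, and equally if they were not and the untreated channel was empty. If the swaps were turned, the mean ratio is the treatment estimate; if not, it is 0.5 times the orientation difference. Over all genes 4 passed on the former quantity and 254 on the latter, and both are given. Ratios hold no RNA level, so the presence of the line's own markers could not be checked.

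Between 19213 and 19973 probes per array gave a value. Arrays 7, 8 and 15 stood apart: none correlated with any other array above r = 0.0835 over probes, while each of the others reached at least 0.126 with some array. Over pairs of arrays the median r was 0.083 within an orientation and -0.058 between orientations, so replicate arrays shared little. Of the members' probe values 8.86% were dim, that is, equal to the ratio of small whole numbers, against 10.3% over all probes. Among cell type markers, 10 of 11 myeloid genes had a mean ratio below 0 (median -0.10), as had 4668 of all 9720 genes tested. The medians for pluripotency, B lymphoid, T lymphoid and fibroblast markers lay between -0.059 and 0.060. No marker passed on the mean ratio, S100a9 passed on the orientation difference, and their part in the results below was not tested.

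No chaperone gene was called changed on the mean ratio. Of 63 members tested with limma, 0 passed at a Benjamini-Hochberg adjusted p under 0.05 over 9720 genes, where 0.0412% of all genes passed, and the lowest adjusted p of a member was 0.442. At an unadjusted p under 0.05 there were 3 members (4.76%), Dnajc3, Dnajc7 and Dnajb4, against 7.02% of all genes. The mean ratio was above 0 for 37 members (58.7%, against 52% of all genes) and below 0 for 26, with a median of 0.024 beside 0.0054 for all genes. Estimates ran from -0.25 for Dnajc16 to 0.31 for Dnajb4. The 95% confidence interval lay within 0.5 of 0 for 55 members (all genes 84.3%). For these a mean ratio of over 0.5 in size was outside the interval of the fit. That bound applies to the treatment only if the swaps were turned. In the fits that left out 1 array, the mean ratio changed sign or moved by over 1.5 times for 53 members and changed sign for 18. The 10 that did neither were Cct5, Dnajc3, Dnajc6, Dnajc7, Dnajc25, Hspa1l, Hspa5, Hspa12b, Hspb8 and Hsph1. A mean ratio near 0 crosses these relative bounds easily, as Hspa9 at 0.0014 did in all 15 fits. The share over all genes was not computed, so these counts describe no trait of the members.

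**Figure D1:**
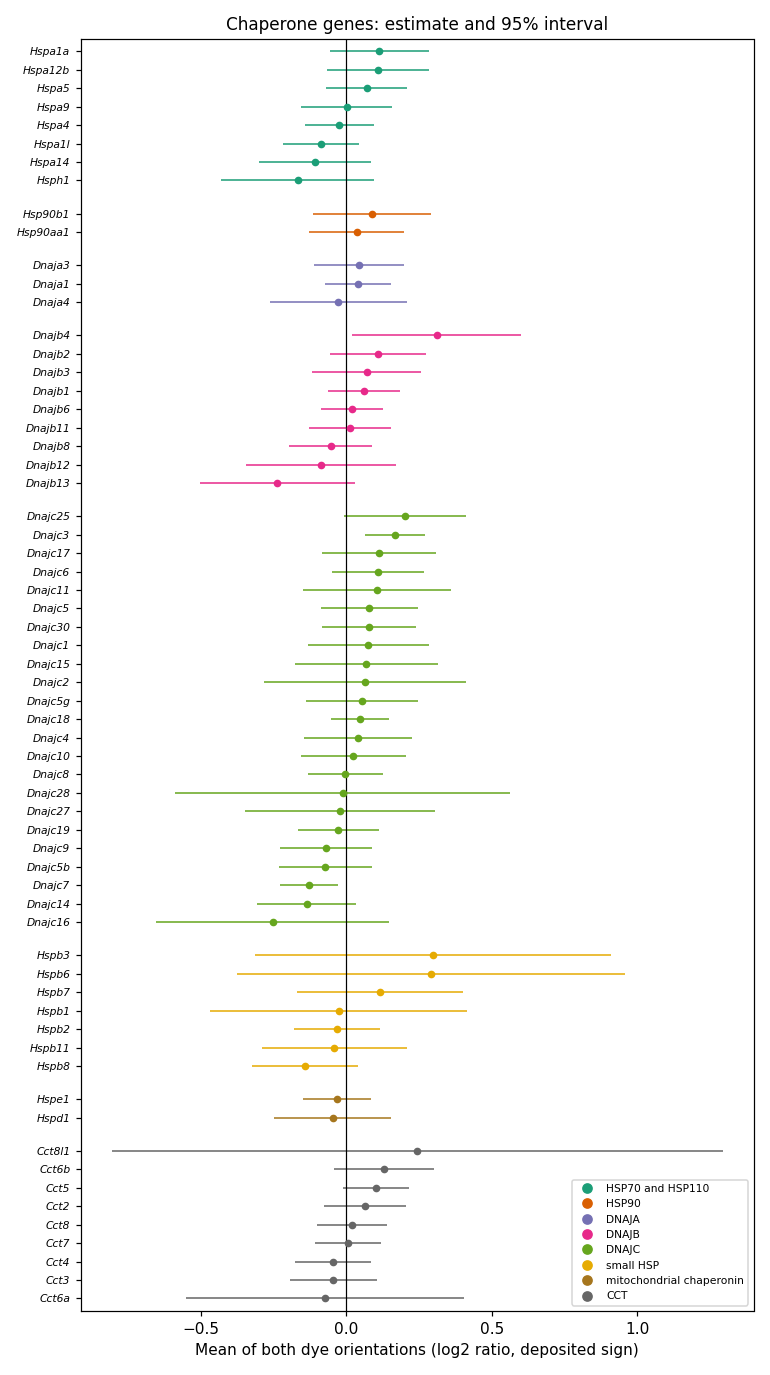
Mean ratio of each of the 63 chaperone genes (x axis, log2 ratio, deposited sign) with its 95% confidence interval from limma, grouped by role. Intervals of Dnajb4 and Dnajc3 lie above 0 and that of Dnajc7 below 0, before any adjustment for 9720 genes, and Cct8l1, measured on 9 arrays, has the widest interval.

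Between dye orientations 2 members differed, both subunits of the CCT ring: Cct4 below 0 (adjusted p = 0.0404 in limma) and Cct8 above 0 (adjusted p = 0.0460). That is 3.17% of members against 2.61% of all genes, with 1.92% of all genes called above 0 and 0.689% below. At an unadjusted p under 0.05 there were 10 members (15.9%), against 19.5% of all genes. For no member were the ranges of the 2 orientations apart, which held for 1.44% of all genes. Should the dye swaps need turning, Cct4 and Cct8 would be the members with a treatment call, at -0.25 ± 0.06 (SE) and 0.22 ± 0.06. If they were already turned, the treatment estimates are the mean ratios, -0.044 ± 0.062 and 0.020 ± 0.056, and neither passed.

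**Figure D2:**
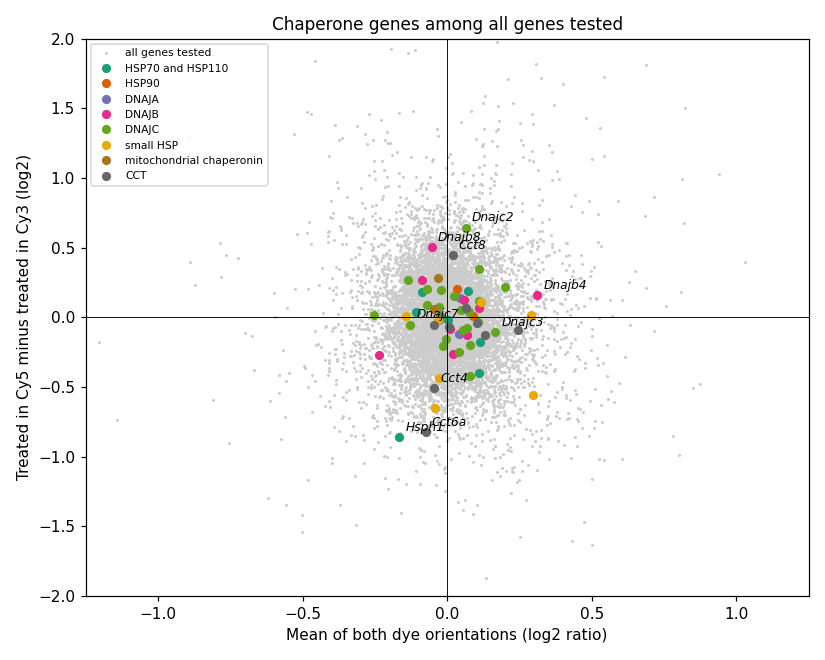
Mean ratio (x axis, log2) against orientation difference (y axis, log2) for the 63 chaperone genes, coloured by role, over all genes tested in grey; 11 genes lie outside the axes. The members lie within the cloud of all genes. They spread farther on the y axis, from -0.86 for Hsph1 to 0.65 for Dnajc2, than on the x axis. The orientation difference has a larger SE than the mean ratio by construction, so the 2 spreads are not comparable.

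HSP70 and HSP110 proteins are the ATP-driven core of the system, and 8 members were measured, 4 on each side of 0, their median being -0.011. Hspa1a, the stress-inducible HSP70, ranged from -0.28 to 0.56 on the Cy5 arrays (median 0.0050) and from -0.27 to 0.83 on the dye swaps (median 0.19). Its ranges overlapped almost fully and the mean ratio was 0.11 ± 0.08 (SE, n = 15; adjusted p = 0.785 in limma). It was 0.061 without array 10 and 0.065 with dim values left out. Near-identical copies such as Hspa1b can bind the same cDNA probe, so the 2 cannot be told apart here. Hspa1l, the testis relative of this gene, was at -0.087 ± 0.061.

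Hspa5 (BiP), the HSP70 of the ER, lay between -0.27 and 0.49 on the Cy5 arrays (median 0.23) and between -0.33 and 0.17 on the dye swaps (median -0.058). It was above 0 on 8 arrays and below 0 on 7, with a mean ratio of 0.071 ± 0.066 (SE; adjusted p = 0.829). Without arrays 7, 8 and 15 the value was 0.15 (adjusted p = 0.571). Hspa9 (mortalin), the mitochondrial HSP70, was at 0.0014 ± 0.074. Its 4 probes spread from -0.11 to 0.22.

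Hsph1 (HSP105) and Hspa4 are HSP110-type proteins that act as nucleotide exchange factors. Hsph1 had the largest orientation difference in size among the members. With the treated RNA in Cy5 it ranged from -1.37 to 0.35 (median -0.60), and on the dye swaps from -0.31 to 0.84 (median 0.25). Below 0 lay 6 of 8 arrays of the former and 2 of 7 of the latter, and the ranges overlapped through arrays 3 and 4. The orientation difference was -0.86 ± 0.25 (SE), which missed the threshold (adjusted p = 0.0714 in limma). It passed without array 3 (-0.99, adjusted p = 0.0411). Hspa4 was close to 0 in both quantities, at -0.023 ± 0.055 and 0.012 ± 0.11. Hspa14, a ribosome-associated member, was at -0.11 ± 0.09. The distant relative Hspa12b had a mean ratio of 0.11 ± 0.08 and an orientation difference of -0.40 ± 0.16 (adjusted p = 0.189).

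HSP90 was represented by Hsp90aa1, the inducible cytosolic form, and Hsp90b1 (GRP94), the form of the ER. Hsp90aa1 had a mean ratio of 0.036 ± 0.077 (SE, n = 15), from probes at -0.13 ± 0.08 and 0.20 ± 0.14. Hsp90b1 was above 0 on 11 of 15 arrays, from -0.46 to 1.12 on the Cy5 arrays (median 0.022) and from -0.29 to 0.20 on the dye swaps (median 0.17). Its lowest values were those of arrays 7, 8 and 15, and array 2 was the highest. The mean ratio was 0.088 ± 0.096 (adjusted p = 0.851), 0.21 without arrays 7, 8 and 15, and 0.015 without array 2.

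DNAJ proteins bring clients to HSP70 and set off its ATPase. The 35 measured members had 22 mean ratios above 0 and 13 below, with a median of 0.040. Class A is closest to the bacterial founder of the family. Dnaja1, which serves cytosolic HSP70, was at 0.040 ± 0.053 (SE), Dnaja3, its mitochondrial relative, at 0.043 ± 0.072, and Dnaja4 at -0.027 ± 0.111.

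Of class B, 9 members were measured, 6 above 0 and 3 below. Dnajb1 (HSP40), the partner of HSP70 that is induced by heat, lay between -0.11 and 0.37 on the Cy5 arrays (median 0.079) and between -0.17 and 0.31 on the dye swaps (median -0.11). It was above 0 on 7 arrays and below 0 on 8, with a mean ratio of 0.060 ± 0.058 (adjusted p = 0.838). Dnajb11, a cofactor of Hspa5 in the ER, was at 0.012 ± 0.066. The neuronal Dnajb2 was at 0.11 ± 0.08, Dnajb3 at 0.069 ± 0.087 and Dnajb12 of the ER membrane at -0.086 ± 0.121. Dnajb13, a protein of the sperm tail, was lowest at -0.24 ± 0.13 and below 0 on 11 arrays. Without array 14 it was at -0.15.

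Dnajb4, a cytosolic partner of HSP70, had the highest mean ratio of the members, and 1 probe on 1 array bore much of it. With the treated RNA in Cy5 it was above 0 on all 8 arrays, from 0.086 to 0.62 (median 0.43). On the dye swaps it ranged from -0.24 to 2.02 (median -0.060), with only arrays 13 and 15 above 0. The mean ratio was 0.31 ± 0.14 (SE; unadjusted p = 0.0370, adjusted p = 0.683 in limma), and 0.16 without array 15. One probe was above 0 on every array, at 0.71 ± 0.29, and read 4.95 on array 15. The other probe was at -0.091 ± 0.085 with an orientation difference of 0.75 ± 0.17, which passed over 19863 probes (adjusted p = 0.0308 in limma). For the gene, the orientation difference was 0.16 ± 0.27 on all arrays and 0.46 without array 15, where it passed (adjusted p = 0.0469).

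Dnajb8, a testis-expressed suppressor of protein aggregation, and Dnajb6, its widely expressed relative, had medians on opposite sides of 0 in the 2 orientations and did not pass. For Dnajb8, Cy5 arrays ran from -0.22 to 0.52 (median 0.24) and the dye swaps from -0.67 to 0.010 (median -0.34). The former were above 0 on 6 of 8 arrays and the latter on 1 of 7. The orientation difference was 0.50 ± 0.13 (adjusted p = 0.0559), and both probes were above 0 in it, at 0.56 and 0.44. Without array 1 it passed (adjusted p = 0.0348), as it did with arrays scaled to equal spread (adjusted p = 0.0408). For Dnajb6, the former ran from -0.18 to 0.0022 and the latter from -0.14 to 0.51. Its orientation difference was -0.26 ± 0.10 (adjusted p = 0.160), and all 5 probes were below 0 in it, from -0.45 to -0.075. The mean ratio of Dnajb6 was 0.019 ± 0.050, with probes on both sides of 0 from -0.19 to 0.29.

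**Figure D3:**
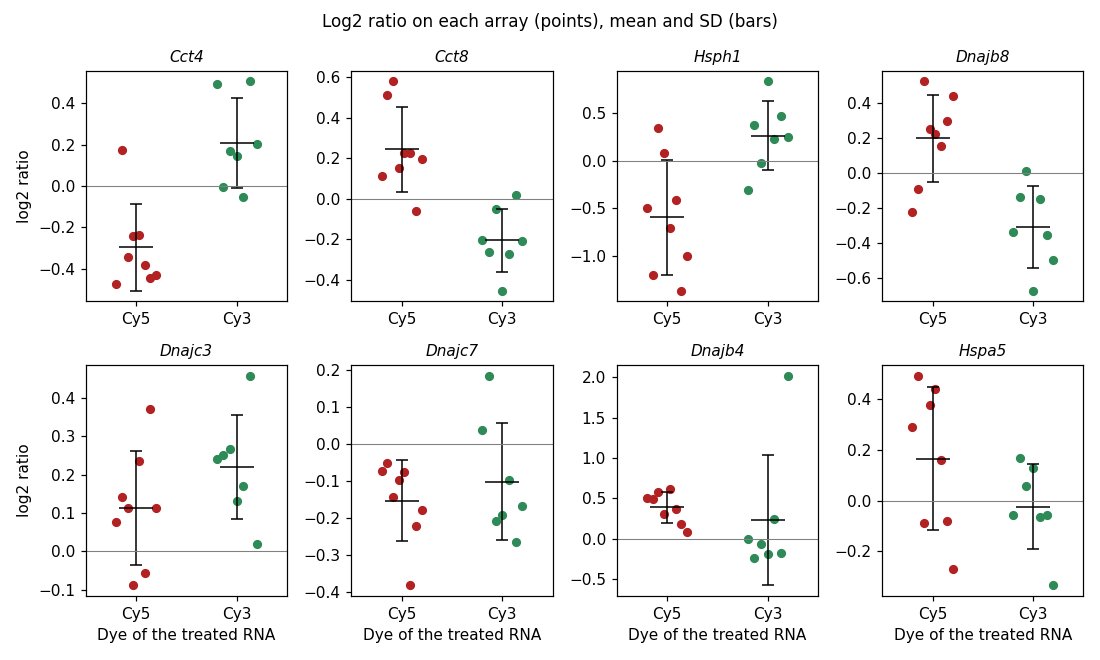
Log2 ratio on each array (points) for 8 members, split by the dye of the treated RNA (8 arrays Cy5, 7 arrays Cy3), with the mean and SD as bars; y axes differ between panels. Cct4 and Cct8 take opposite sides of 0 in the 2 orientations, Dnajc3 is above 0 on 13 of 15 arrays, and Dnajb4 holds 1 dye swap at 2.02.

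Class C joins proteins that share the J domain and little else, and 14 of its 23 measured members were above 0. Dnajc3 (P58IPK), an ER-resident cofactor of Hspa5 and an inhibitor of the kinase PERK, had the smallest p of the members on the mean ratio. It ranged from -0.088 to 0.37 on the Cy5 arrays (median 0.11) and from 0.019 to 0.46 on the dye swaps (median 0.24). It was above 0 on 6 of 8 and 7 of 7 arrays, with only arrays 4 and 6 below. The mean ratio was 0.17 ± 0.05 (SE; unadjusted p = 0.00350, adjusted p = 0.442 in limma), with a 95% interval from 0.064 to 0.27. Its probes agreed in sign, at 0.12 ± 0.06 and 0.21 ± 0.08, and none of its probe values was dim.

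Dnajc7 (TPR2), which binds both HSP70 and HSP90, was below 0 on more arrays than any other member. All 8 Cy5 arrays were below 0, from -0.38 to -0.051 (median -0.12), and 5 of 7 dye swaps, from -0.27 to 0.18 (median -0.17). The mean ratio was -0.13 ± 0.05 (SE; unadjusted p = 0.0161, adjusted p = 0.613 in limma), and both probes gave -0.13. On at least 12 of 15 arrays, 3 members were above 0 (Dnajc3, Cct5 and Dnajc1) and Dnajc7 alone was below 0. Over all genes 2.66% were above and 2.05% below 0 on as many arrays.

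The other class C members of the ER and of membranes lay on both sides of 0. Dnajc1, a membrane J protein, was at 0.076 ± 0.098 (SE) and above 0 on 12 arrays. Dnajc10 (ERdj5), a reductase in ER-associated degradation, was at 0.024 ± 0.085, with probes at 0.16 and -0.11. Dnajc25 was at 0.20 ± 0.10 and above 0 on 11 arrays, the highest of class C (adjusted p = 0.712 in limma, not past the threshold). Dnajc14 was at -0.14 ± 0.08 and Dnajc16 at -0.25 ± 0.19, which became -0.10 without array 7.

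Some class C members work in mitochondria. Dnajc19, a part of the import motor, was at -0.027 ± 0.066 (SE). Dnajc15 was at 0.069 ± 0.117, with array 15 at 1.51, and at -0.048 without it. Dnajc11, of the cristae-organising complex, was at 0.11 ± 0.12, with array 7 at 1.20, and at 0.026 without it. Dnajc30 was at 0.079 ± 0.076 with an orientation difference of -0.42 ± 0.15 (adjusted p = 0.140), which passed without array 15 (-0.54, adjusted p = 0.0333) and without arrays 7, 8 and 15 (adjusted p = 0.0252).

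Further class C proteins serve vesicles, ribosomes and the nucleus. Dnajc5 (cysteine string protein) was at 0.079 ± 0.078 (SE), Dnajc5b at -0.071 ± 0.075 and Dnajc5g at 0.053 ± 0.091. Dnajc6 (auxilin), which strips clathrin from vesicles, was at 0.11 ± 0.07, with an orientation difference of 0.35 ± 0.15 (adjusted p = 0.201) from probes at -0.13, 0.50 and 0.73. Dnajc2 (zuotin), of the ribosome-associated complex, had a mean ratio of 0.065 ± 0.162 and an orientation difference of 0.65 ± 0.32 (adjusted p = 0.296), with 28.6% of its values dim. Dnajc8, found with the spliceosome, was at -0.0031 ± 0.061, and Dnajc9, a histone chaperone, at -0.071 ± 0.074. Dnajc17 was at 0.11 ± 0.09, Dnajc18 at 0.048 ± 0.047, Dnajc4 at 0.040 ± 0.087, Dnajc27 at -0.022 ± 0.153 and Dnajc28 at -0.013 ± 0.272. Array 7 read -3.55 for Dnajc28, and without it the mean ratio was 0.23.

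Small HSPs were the noisiest role, with a median standard error of 0.13 beside 0.081 for all members, and 3 of 7 were above 0. Hspb1 (HSP25), the best known of them, ranged from -2.82 to 1.03 on the Cy5 arrays (median -0.050) and from -0.30 to 1.04 on the dye swaps (median 0.039). The low end is array 7 alone, without which the mean ratio went from -0.027 ± 0.208 to 0.16. Hspb3, a muscle form, was at 0.30 ± 0.29, resting on a value of 4.43 on array 15 and at -0.024 without it. Hspb6, another muscle form, was at 0.29 ± 0.31, with values from -1.92 to 3.36, and at 0.072 without array 3. For Hspb6 26.7% of the values were dim.

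Hspb8, which works with BAG3 in selective autophagy, was at -0.14 ± 0.09 (SE), with probes at -0.27 ± 0.12 and -0.017 ± 0.083. Hspb7 was at 0.12 ± 0.13, and at 0.033 without array 2 and 0.019 without array 15, its highest arrays. Hspb2 was at -0.032 ± 0.070. Hspb11 carries the prefix but is a subunit of the intraflagellar transport complex (IFT25). Its mean ratio was -0.041 ± 0.117 and its orientation difference -0.65 ± 0.23 (adjusted p = 0.139 in limma).

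The mitochondrial chaperonin genes Hspd1 (HSP60) and Hspe1 (HSP10), whose shared promoter is printed above, were both close to 0. Hspd1 ranged from -0.74 to 0.27 on the Cy5 arrays (median 0.060) and from -0.61 to 0.48 on the dye swaps (median -0.10), and its mean ratio was -0.047 ± 0.094 (SE). Its probes stood on opposite sides of 0, at 0.092 ± 0.077 and -0.24 ± 0.15, and 24.1% of its values were dim. Hspe1 ranged from -0.11 to 0.53 (median 0.053) and from -0.37 to 0.0090 (median -0.17), with a mean ratio of -0.032 ± 0.054. The orientation difference of Hspe1 was 0.28 ± 0.11 (adjusted p = 0.162). On 9 of 15 arrays both genes had the same sign. The genes with a heat shock element in the window had mean ratios of -0.17 (Hsph1), -0.047 (Hspd1), -0.032 (Hspe1) and 0.019 (Dnajb6). In the same order their orientation differences were -0.86, 0.061, 0.28 and -0.26. Those with an ER stress element, a motif chosen after the array values were seen, had mean ratios of 0.071 (Hspa5), 0.088 (Hsp90b1) and 0.17 (Dnajc3). Their orientation differences were 0.19, 0.011 and -0.11. None passed on either quantity.

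CCT is a ring built of different subunits, and its genes lay on both sides of 0. Of 9 genes 6 were above 0, with a median of 0.020. Cct2 was at 0.064 ± 0.066 (SE), Cct3 at -0.045 ± 0.070, Cct5 at 0.10 ± 0.05 and Cct7 at 0.0060 ± 0.054. Cct5 was above 0 on 12 arrays (adjusted p = 0.733 in limma). Tcp1, the subunit whose symbol falls outside the rule, was at -0.030 ± 0.054. None of these passed.

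Cct4 and Cct8 differed between orientations in opposite ways. Cct4 was below 0 on 7 of 8 Cy5 arrays, from -0.47 to 0.17 (median -0.36), and above 0 on 5 of 7 dye swaps, from -0.053 to 0.51 (median 0.17). Array 2, at 0.17, is the array that makes the ranges overlap. The orientation difference was -0.51 ± 0.12 (SE; adjusted p = 0.0404 in limma). Cct8 was above 0 on 7 of 8 arrays, from -0.059 to 0.58 (median 0.21), and below 0 on 6 of 7 dye swaps, from -0.45 to 0.021 (median -0.21). Its orientation difference was 0.45 ± 0.11 (adjusted p = 0.0460), and its ranges overlapped only through arrays 7, 11 and 14. The mean ratios were -0.044 ± 0.062 for Cct4 and 0.020 ± 0.056 for Cct8.

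Both calls sit at the threshold. Leaving out 1 array at a time, Cct4 passed in 3 of 15 fits (without array 2, 7 or 13; adjusted p from 0.0222 to 0.0880 over all) and Cct8 in 1 (without array 7; adjusted p from 0.0257 to 0.0870). The differences themselves stayed between -0.57 and -0.46 and between 0.40 and 0.49. Without arrays 7, 8 and 15, Cct8 passed (0.505, adjusted p = 0.0347) and Cct4 did not (-0.46, adjusted p = 0.0770). With arrays centred on their median Cct8 did not pass (0.42, adjusted p = 0.0547). Each gene has 1 probe, so no other probe could be compared, and none of their values was dim.

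Of the remaining CCT genes, Cct6a was at -0.074 ± 0.224 (SE) with an orientation difference of -0.82 ± 0.45 (adjusted p = 0.337 in limma); array 2 read -2.93, and without it the mean ratio was 0.10. Cct6b, a testis form, was at 0.13 ± 0.08, with its 3 probes at 0.17, 0.16 and 0.053. The first of these read 3.19 on array 15, without which Cct6b was at 0.064. Cct8l1, a gene related to Cct8, gave a value on 9 arrays only, 66.7% of them dim, and its 0.24 ± 0.47 turned to -0.091 without array 1.

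Probes of a gene often lay on different sides of 0. Of 26 members with several fitted probes, all probes had a mean ratio on 1 side of 0 for 13, and an orientation difference on 1 side for 9. Estimates near 0 change side easily, and the share over all genes was not computed. The counts therefore describe no trait of the members. The median distance between the highest and lowest probe was 0.16, beside mean ratios from -0.25 to 0.31 over the members. The widest gap was that of Dnajb4 (0.81), followed by Dnajb6 (0.48), Hsp90aa1 (0.34), Hspa9 (0.33) and Hspd1 (0.33). Within a gene, the probes of Dnajc7, Dnajc5b and Dnajc27 lay closest in mean ratio, at most 0.0058 apart. Their orientation differences lay on opposite sides of 0 in each of these genes. For Dnajc27, 1 probe had values on 10 arrays and an SE of 0.43. Of 99 member probes fitted, 0 passed on the mean ratio and 3 on the orientation difference (2.74% of all probes passed there). These were 1 each of Dnajb4 and Dnajb8 and the probe of Cct4 (adjusted p = 0.0468 over probes in limma). The probe of Cct8 did not pass over probes (adjusted p = 0.0530 in limma).

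**Figure D4:**
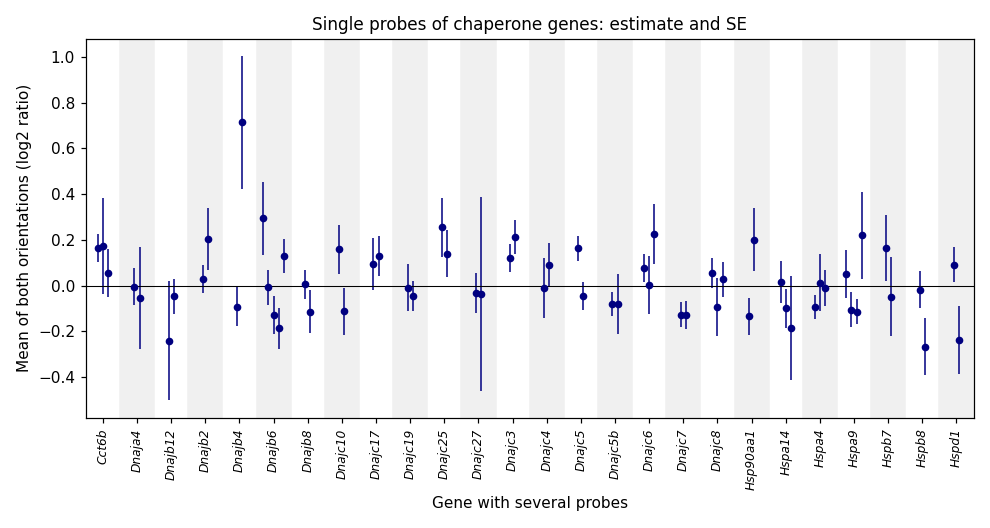
Mean ratio (y axis, log2) of each fitted probe for the 26 members with several probes, with its SE. Probes of Dnajc3, Dnajc7, Dnajc25 and Dnajc17 lie on 1 side of 0, while those of Dnajb4, Hsp90aa1, Hspa9 and Hspd1 lie on both.

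The spread between arrays also differed by member. The SD over 15 arrays had a median of 0.33 for members and 0.37 for all genes, and ran from 0.13 for Dnajc18 to 1.55 for Cct8l1. On single arrays the median over the members lay between -0.11 (array 7) and 0.14 (array 2), and the share of members above 0 between 33.9% (array 8) and 62.9% (arrays 3 and 5).

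Other genes of the chaperone system were read from lists of partners. Of 87 listed genes 59 were tested, 31 above 0 and 28 below, with a median of 0.0061, and 0 passed on the mean ratio. Heat shock factor genes and their regulators had 3 of 6 members tested, namely Hsf5, Hsf2bp and Hsbp1, all above 0 and none past the test. Hsf1, Hsf2 and Hsf4 were not tested. Hsbp1, a negative regulator of HSF1, had a mean ratio of 0.032 ± 0.053 (SE) and an orientation difference of 0.35 ± 0.11 (adjusted p = 0.0823 in limma). Of 17 HSP90 cochaperones 10 were above 0, such as Stip1, which links HSP70 to HSP90, at 0.0061 ± 0.067 and Fkbp4 at 0.032 ± 0.052. Of 13 HSP70 exchange factors and cochaperones 7 were above 0, with Bag3 at 0.036 ± 0.083 and the ubiquitin ligase Stub1 at 0.070 ± 0.059. Of 5 prefoldin and chaperonin partners 1 was above 0. On the orientation difference 2 of the 59 partners passed (3.39%, against 2.61% of all genes). Both were above 0, where 1.92% of all genes were called. Pfdn6, a prefoldin subunit that hands actin and tubulin to CCT, was at 0.65 ± 0.11 (adjusted p = 0.00870 in limma). Ttc4, an HSP90 cochaperone, was at 1.16 ± 0.26 (adjusted p = 0.0310 in limma). Fits that left out 1 array are not given for them.

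On the mean ratio, genes of ER folding and the unfolded protein response held most partners with a low p. Of 21 tested, 10 were above 0 and 11 were not. An unadjusted p under 0.05 was found for 6 (28.6%, against 7.02% of all genes) and 0 past limma's adjusted threshold. The lists were chosen with earlier results of these data known, and no set test was run. Of the stress transcription factors, Atf4 was at -0.32 ± 0.11 (SE; 14 of 15 arrays below 0, adjusted p = 0.546) and Ddit3 (CHOP) at -0.17 ± 0.06 (12 of 15, adjusted p = 0.503). Xbp1, measured on 10 arrays, was at 0.078 ± 0.332, with 5 arrays on each side of 0. Herpud1, of ER-associated degradation, was at -0.11 ± 0.05. Above 0 lay Ero1b, an oxidase for disulfide formation, at 0.29 ± 0.11 (12 of 15 arrays, adjusted p = 0.598), Edem1 at 0.21 ± 0.09 and Derl1 at 0.94 ± 0.42, the last measured on 9 arrays. On the orientation difference 0 passed, and 5 had an unadjusted p under 0.05 in limma (23.8%, against 19.5% of all genes). The 5 were Creld2 and Manf above 0 and Pdia4, Canx and Derl3 below 0. In that quantity Atf4 was at -0.27 ± 0.22 and Ddit3 at -0.11 ± 0.11.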

How the data were processed

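RNA of a treated and an untreated cell line was compared on 15 two-colour cDNA arrays. The deposited values are log2 ratios, 1 per probe and array; the scanner signals were not used here, and no label or header used here states the normalization or background correction. Values beyond 10 in size stand for an empty channel and were treated as missing. A value was called dim when it equalled the log2 ratio of whole numbers up to 6, within 0.0015 after the array's constant. Of 20205 probes, 13891 have 1 gene symbol in the platform annotation, 5 have several and 6309 none; 13855 were matched to RefSeq for current symbols. Probes were averaged per gene. The 9720 genes measured on 4 or more arrays per orientation were fitted with limma 3.58.1 in R 4.3.3, with a mean and an orientation term, and p-values were adjusted over all genes by the Benjamini-Hochberg method at 0.05. The fit was tested on simulated data. Every member is named. The members and lists were chosen with earlier results of these data known. Precision is limited by how many arrays there are. Protein sequences were not used here.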

Additional observations from a re-analysis of the deposited data

Results flagged for a closer look

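The ratios of 2 chaperonin subunit genes differed between Cy5 arrays and dye swaps, by the orientation term of limma. For Cct4, which forms part of the ring that folds actin and tubulin, the orientation difference was -0.51 ± 0.12 (SE; adjusted p = 0.0404), from a mean of -0.30 over 8 arrays and 0.21 over 7. For Cct8, another subunit of the same ring, it was 0.45 ± 0.11 (adjusted p = 0.0460), from means of 0.24 and -0.20. These are 3.17% of the members, against 2.61% of all genes. Leaving out 1 array at a time, Cct4 passed in 3 of 15 fits and Cct8 in 1 of 15. The orientation difference gives a treatment estimate only if the dye swaps were not turned. If they were, that estimate is the mean ratio, -0.044 ± 0.062 for Cct4 and 0.020 ± 0.056 for Cct8, and neither passed.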

How the results depend on the processing

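No member passed limma's adjusted threshold on the mean ratio under any alternative that kept the deposited sign. With the dye swaps turned, 2 members passed there and 0 on the other term, and over all genes 254 and 4. Over all genes the count on the mean ratio was 8 with placeholders left in, 8 with the most measured probe per gene, 11 with array weights, and 0 with either orientation alone or without arrays 7, 8 and 15. On the orientation difference it was 676 with array weights and 571 without arrays 7, 8 and 15. Members called on the orientation difference numbered 1 with arrays centred on their median and 4 with array weights. Leaving out 1 array at a time gave 0 to 7 genes on the mean ratio, 99 to 431 on the orientation difference, 0 members on the first and 0 to 2 on the second, and a member median from 0.015 to 0.041. With the most measured probe per gene, the orientation differences of Dnajb4 (-0.42) and Dnajc6 (-0.13) reversed, since another probe then stands for the gene. The mean ratio kept its sign in all 28 settings that kept the deposited sign for 20 of 63 members, and in all 27 that gave a value for 3 more (Dnajb3, Dnajc11 and Dnajc16). Leaving out dim values, fitting single probes and searching the ER stress element were chosen after seeing the data. No paired analysis was possible because the 15 arrays form 1 group and the labels do not pair a dye swap with an array.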
